A study of Homo sapiens with 20 samples.

Results

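The genes described here are 8 interferon-stimulated genes, grouped as OAS, MX and double-stranded RNA effectors: OAS1, OAS2, OAS3, OASL, MX1, MX2, EIF2AK2 and ADAR. They were chosen by gene symbol, and all 8 were found among the 43366 genes of the count table. RNA-seq was carried out on U2OS, a human osteosarcoma cell line, in 4 groups of 5 libraries. Each group holds 5 clones of U2OS, either WT or labelled ZBTB48 Knockout (KO), a zinc finger protein that binds telomeric DNA and promoters. One library of every clone was left without treatment and the other came from cells kept for 24 h in medium with IFNγ at 250 U/ml. Each replicate is 1 clone, so the spread between replicates is a spread between clones of 1 cell line. How these U2OS clones were edited is not given in the sources used here.

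Interferons induce the genes in question as part of cell-intrinsic antiviral defence. Type I and type III interferons act through a complex that holds STAT2 and IRF9 and binds interferon-stimulated response elements (ISRE), while IFNγ is a type II interferon with a receptor of its own. OAS1, OAS2 and OAS3 are enzymes that sense double-stranded RNA and make short oligoadenylates as an antiviral second messenger, while OASL has lost this enzymatic activity. MX1 and MX2 are dynamin-like GTPases that block viral nucleocapsids, EIF2AK2 encodes PKR, the kinase that halts translation by phosphorylating eIF2α, and ADAR edits adenosine to inosine in double-stranded RNA.

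The 3 OAS enzymes form a cluster on chromosome 12 of GRCh38, with OAS1 at chr12:112906962-112933219, OAS3 at chr12:112938474-112973251 and OAS2 at chr12:112978519-113011723, all on the plus strand and with 5254 and 5267 bases between neighbours. OASL lies apart on the same chromosome, at chr12:121017761-121039246 on the minus strand. MX2 at chr21:41362027-41409393 and MX1 at chr21:41420558-41459214 are neighbours on the plus strand of chromosome 21 with 11164 bases between them. EIF2AK2 is at chr2:37099210-37156980 and ADAR at chr1:154582057-154627997, both on the minus strand. EIF2AK2 shares 35 exonic bases with GPATCH11 and ADAR shares 42 with LOC124904427, each on the opposite strand.

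Promoter sequences from RefSeq (GRCh38.p14, 250 bases before to 50 bases after an annotated start) were at hand for OAS1, OAS3, MX1, EIF2AK2 and ADAR. They are shown as the sequence at the starts of these genes, and were searched on both strands for the ISRE core (GAAA, any 2 bases, GAAA) and a variant with 1 base between, GAAANGAAA. The variant was added after the OAS1 sequence had been read. Of 35116 promoter entries of this length, 3.57% held the ISRE core and 3.12% the variant. Windows of 30 bases follow, 5′ to 3′ along the gene's own strand, with the match in capitals.
OAS1, variant, 17 to 9 bases before the start, chr12:112906935-112906964, plus strand: cccttctgagGAAACGAAAccaacagcagt
OAS3, ISRE core, 12 to 3 bases before the start, chr12:112938452-112938481, plus strand: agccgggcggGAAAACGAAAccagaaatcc
OAS3, ISRE core, 143 to 134 bases before the start, chr12:112938321-112938350, plus strand: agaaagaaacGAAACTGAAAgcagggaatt
EIF2AK2, ISRE core, from 6 bases before to base 4 after the start, chr2:37156967-37156996, minus strand: agtccaagggGAAAACGAAActgagaacca
MX1, ISRE core, bases 12 to 21 of the first annotated start, chr21:41420559-41420588, plus strand: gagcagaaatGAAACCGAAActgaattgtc
The far OAS3 match overlaps a match to the variant, as does the MX1 match shown. MX1 has 3 annotated starts, and 2 of them held an ISRE core, with 4 matches to the variant in all. The 3 entries of ADAR held neither motif.

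Total counts per library lay between 46652288 and 72952859. Levels are given as CPM, counts scaled by edgeR to a common library size after TMM normalization, and a count of 3 or less was taken as the floor. ZBTB48, the targeted gene at chr1:6579994-6589280, had 8.02 to 9.43 CPM in untreated WT libraries and 1.29, 1.94, 11.3, 3.12 and 4.06 CPM in KO replicates 1 to 5, so that the library labelled KO replicate 3 lay above every WT library, also after IFNγ. For this reason the libraries are named by their label. Transcript counts do not show whether a clone has lost the ZBTB48 protein, and the state of this clone was not tested. Treated and untreated libraries of 1 clone deviated from their group together in the WT clones and in KO replicates 1 to 3 (Pearson's r of 0.70 to 0.89 across 15115 genes), but not in KO replicates 4 and 5 (0.0003 and 0.069). Each of these replicates matched the other number best (0.76 and 0.84). Most results that rest on these pairs are given with and without them. Statements on how many clones rose, or which clone responded most, include them unless said otherwise. Fits that do not match libraries by clone make no use of the pairs, and leaving both replicates out there leaves 3 KO-labelled clones. Of 8 osteoblast lineage markers, 4 had more than 3 counts in every library (summed level of 1068 to 9164 CPM), COL1A2, SP7, BGLAP and IBSP did not, and 4 blood cell markers summed to between 0.24 and 1.08 CPM. The 2 epithelial markers, EPCAM and CDH1, summed to between 0.46 and 12.9 CPM, with both ends of that range in untreated libraries, WT and KO-labelled.

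By edgeR's estimates OAS2 had the largest log2 fold change of the 8 genes after IFNγ. In untreated WT clones 1 to 5 OAS2 had 1.36, 0.353, 0.406, 0.717 and 0.0354 CPM, and after IFNγ 64.7, 59.5, 38.3, 95.2 and 36.6 CPM. The untreated KO-labelled libraries had 0.290, 0, 0.247, 0.185 and 0.594 CPM in the same order, and the treated ones 43.3, 20.02, 63.3, 77.5 and 81.8 CPM. In both genotypes the lowest treated library stood far above the highest untreated one, from a baseline that came to 2 counts in WT replicate 5 and to 0 in KO replicate 2. The log2 fold change was 6.67 (SE 0.65, edgeR adjusted p = 7.53e-05), or 102-fold, in WT clones and 7.76 (SE 0.69, edgeR adjusted p = 6.49e-05), or 216-fold, in KO-labelled libraries, which ranked 40th of 19522 and 23rd of 19385 genes tested by their rise. DESeq2's shrunken log2 fold changes were 1.97 and 3.25, past the cut-offs as well, and in WT clones that of MX2 was then larger, at 2.62. These are bulk samples, in which a rise in the share of responding cells cannot be told apart from more RNA per cell.

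OAS1, the shortest enzyme of the family, had 2.01, 1.87, 0.894, 2.09 and 0.159 CPM in untreated WT clones and 15.8, 15.2, 12.4, 24.2 and 5.20 CPM after IFNγ. In the KO-labelled libraries it had 2.10, 0.0202, 1.73, 1.23 and 1.27 CPM untreated and 16.2, 6.05, 15.8, 19.5 and 22.2 CPM treated. WT replicate 5 and KO replicate 2 were the lowest libraries in their groups in both conditions, and treated and untreated libraries did not overlap. The log2 fold change of 3.38 (SE 0.60, edgeR adjusted p = 0.0042) in WT clones passed both cut-offs, an adjusted p under 0.01 and more than 2-fold. It was 3.65 (SE 0.72, edgeR adjusted p = 0.0113) in KO-labelled libraries, just short of the first cut-off. It was called there by DESeq2 with and without shrinkage (adjusted p = 3.66e-07), with all 20 libraries in edgeR (adjusted p = 0.00203), without KO replicate 2 (3.10e-05) and when clones were blocked (0.00239), but not in that block without KO replicates 4 and 5 (0.0343). In WT clones the call was lost without replicate 1, 2, 3 or 4 in turn (edgeR adjusted p of 0.0224 to 0.0276) and without the filter on low counts (0.0113).

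OAS3, the longest enzyme of the family, stood at 39.6, 29.9, 36.6, 17.0 and 3.43 CPM in untreated WT clones and at 103, 124, 162, 89.7 and 37.0 CPM after IFNγ. The KO-labelled libraries stood at 40.5, 2.06, 32.3, 18.7 and 33.6 CPM untreated and 90.8, 29.7, 105, 127 and 116 CPM treated. All 10 clones had more OAS3 after IFNγ, yet the treated libraries of WT replicate 5 and KO replicate 2 lay below the highest untreated libraries of their genotype. The log2 fold change was 2.04 (SE 0.55, edgeR adjusted p = 0.0367) in WT clones and 1.88 (SE 0.62, edgeR adjusted p = 0.0889) in KO-labelled libraries, so edgeR called neither. DESeq2, the tool of the study, called OAS3 in WT clones with and without shrinkage (log2 fold change 1.15 and 2.04, adjusted p = 8.46e-04), and in KO-labelled libraries called it only without shrinkage (1.89, adjusted p = 0.00977), the shrunken value being 0.99. Without WT replicate 5 it was 1.98 (edgeR adjusted p = 0.00362), and without KO replicate 2 it was 1.81 (edgeR adjusted p = 0.00136), both past the cut-offs. With the clone as a block it was 2.23 (edgeR adjusted p = 0.00423) and 2.20 (edgeR adjusted p = 0.00757), and 2.11 (edgeR adjusted p = 0.0964) in the block without KO replicates 4 and 5.

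OASL, the member without oligoadenylate synthesis, had 11.7, 14.2, 9.77, 9.22 and 36.4 CPM in untreated WT clones and 29.7, 31.4, 19.8, 49.1 and 74.2 CPM after IFNγ. The KO-labelled libraries had 12.8, 2.53, 19.5, 13.7 and 7.24 CPM untreated and 16.4, 13.5, 36.8, 28.6 and 31.1 CPM treated. Here WT replicate 5, among the lowest libraries for the other OAS genes, was the highest of the 10 libraries in both conditions, while KO replicate 2 was again the lowest. OASL was higher after IFNγ in each of the 10 clones, but the groups overlapped. Its log2 fold changes were 1.35 (SE 0.45, edgeR adjusted p = 0.0783) and 1.18 (SE 0.47, edgeR adjusted p = 0.153), and neither was called. Without WT replicate 5 the first was 1.55 (edgeR adjusted p = 0.00923), and it was 1.40 when clones were blocked (edgeR adjusted p = 0.0042), while in KO-labelled libraries the adjusted p stayed above 0.01 in all alternatives, from 0.0185 to 0.651.

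Of the neighbouring genes MX1 and MX2, MX2 was called higher in both genotypes and MX1 in neither. MX2, known for its block to the nuclear entry of HIV, had 0.599, 0.688, 0.487, 1.29 and 0.425 CPM in untreated WT clones and 8.16, 14.2, 7.97, 14.9 and 4.30 CPM after IFNγ. Among KO-labelled libraries it had 1.18, 0, 0.576, 0.641 and 0.534 CPM untreated and 14.5, 3.30, 9.85, 9.28 and 14.0 CPM treated. The groups did not overlap, and the log2 fold changes of 3.83 (SE 0.42, edgeR adjusted p = 1.95e-04) and 4.11 (SE 0.77, edgeR adjusted p = 0.00922) were both called. The KO call was lost in edgeR without KO replicate 1, 3, 4 or 5 (adjusted p of 0.0377 to 0.0599), without the filter on low counts (0.0209), without KO replicates 4 and 5 together (0.281), and in the block without them (0.0128).

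MX1, which restricts influenza viruses, had 0.948, 1.31, 1.54, 0.896 and 1.33 CPM in untreated WT clones and 1.25, 1.42, 1.27, 1.05 and 0.939 CPM after IFNγ, so the groups lay on top of each other. The KO-labelled libraries had 1.06, 0.648, 1.02, 1.10 and 1.11 CPM untreated and 1.36, 0.935, 0.983, 1.64 and 2.06 CPM treated. The counts behind these values were 32 to 112 per library, well above the floor. The log2 fold change was -0.0079 (SE 0.24, edgeR adjusted p = 0.991) in WT clones and 0.50 (SE 0.30, edgeR adjusted p = 0.348) in KO-labelled libraries, with values of -0.10 to 0.11 and of 0.26 to 0.62 over all alternatives. Of 5 clones each, 3 WT and 4 KO-labelled ones had more MX1 after treatment. The latter count was 2 of 3 without KO replicates 4 and 5. Per kilobase of exon, MX2 made up 40.2% ± 14.7 (SD, n = 5) of the MX RNA in untreated WT clones and 89.7% ± 3.82 (SD, n = 5) after IFNγ, against 35.1% ± 21.2 and 88.5% ± 4.79 (SD, n = 5 each) in KO-labelled libraries.

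EIF2AK2 and ADAR were abundant before treatment and had the smallest relative spread between clones of the 8 genes. The coefficient of variation of EIF2AK2 was 8.47% untreated and 7.22% treated in WT clones, against 15.4% and 19.2% in KO-labelled libraries. EIF2AK2 had 109, 93.8, 100.3, 86.6 and 99.2 CPM in untreated WT clones and 171, 159, 181, 163 and 189 CPM after IFNγ. The KO-labelled libraries showed 91.2, 117, 94.8, 82.5 and 115 CPM untreated and 137, 219.5, 156, 207 and 176 CPM treated. All treated libraries lay above all untreated ones of their genotype, by a log2 fold change of 0.84 in both (SE 0.099, edgeR adjusted p = 3.22e-04 in WT clones and SE 0.16, edgeR adjusted p = 0.00856 in KO-labelled libraries). Both adjusted p-values were under 0.01, but both changes stayed under 2-fold.

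ADAR had 317, 298, 294, 311 and 295 CPM in untreated WT clones and 568, 562, 590.4, 628 and 602 CPM after IFNγ. In KO-labelled libraries the values were 242, 303, 272, 284 and 315 CPM untreated and 445, 625, 488, 569 and 585 CPM treated. The groups did not overlap. The WT clones were tight, with a coefficient of variation of 3.41% untreated and 4.52% treated, against 10.1% and 13.6% in KO-labelled libraries. The log2 fold changes were 0.98 (SE 0.086, edgeR adjusted p = 3.81e-05) and 0.94 (SE 0.12, edgeR adjusted p = 0.00112), again just under 2-fold, and without WT replicate 1 the first passed 2-fold at 1.01. The interferon-inducible form of ADAR starts from a promoter of its own, and counts of whole genes do not separate it from the constitutive form.

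Across the set, 3 of 8 genes (OAS1, OAS2 and MX2) were called higher in treated WT clones, against 2.48% of all genes tested, and 2 of 8 in KO-labelled libraries (OAS2 and MX2), against 1.70%. At an edgeR adjusted p under 0.05 with no minimum fold, 6 and 5 of the 8 were higher, where 6.98% and 5.41% of all genes were. The second count was 3, 2 and 3 without KO replicate 3, 4 or 5, and 1 without KO replicates 4 and 5 together. The median log2 fold change of the 8 genes was 1.69 in WT clones and 1.53 in KO-labelled libraries, beside -0.030 and -0.032 over all genes. For OAS1, OAS2, MX2, EIF2AK2 and ADAR treated and untreated libraries did not overlap in either genotype (two-sided exact permutation tests, p = 0.00794, the smallest that 5 against 5 allow), a pattern in this direction that 6.68% and 6.07% of all genes showed. The exact p was 0.0159 and 0.0317 for OAS3 and 0.0317 and 0.0476 for OASL in WT clones and KO-labelled libraries. These exact tests and the main fit took treated and untreated libraries as independent, although both come from the same clones. With the clone as a block, 5 of 8 genes were called higher in WT clones, against 867 of 19522 genes. In KO-labelled libraries 4 were, against 526 of 19385. The latter count was 1, OAS2, in the block without KO replicates 4 and 5, against 239 of 19633. It was 0 without them and without the block, where 22 genes in all were called. That last fit makes no use of the pairs and has 3 KO-labelled clones.

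**Figure D1:**
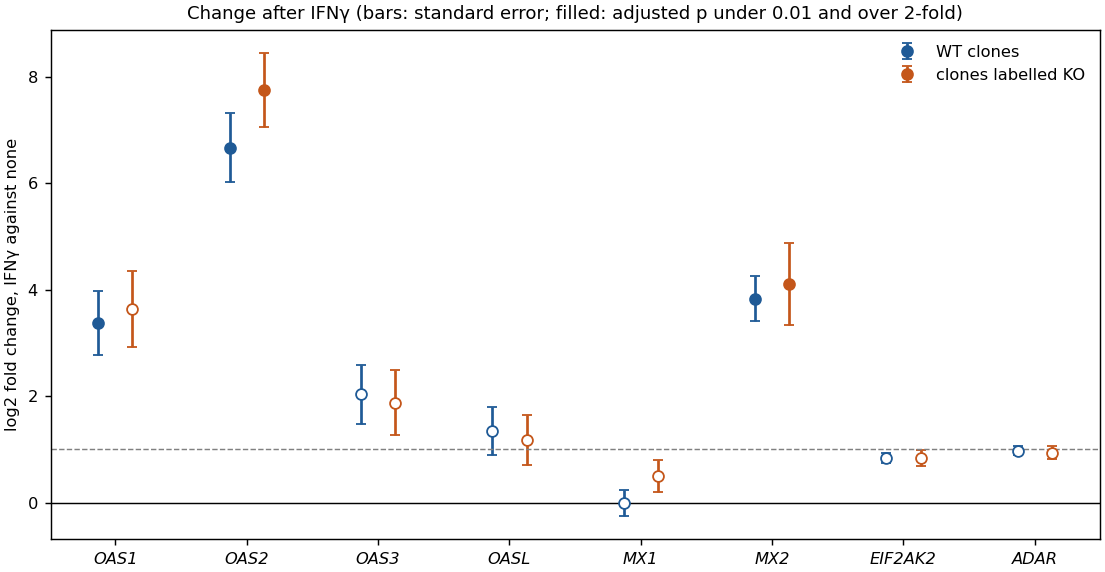
Log2 fold change of each gene between treated and untreated libraries with its standard error, in WT clones (blue) and in KO-labelled libraries (orange), from edgeR's fit on 10 libraries each. Filled points passed an adjusted p under 0.01 and 2-fold, the dashed line marks 2-fold, and the order from OAS2 (6.67 and 7.76) down to MX1 (-0.0079 and 0.50) was the same in both genotypes.

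Levels of different genes were compared per kilobase of exon. In untreated WT clones ADAR had 42.5 ± 1.45 CPM per kb (SD, n = 5), EIF2AK2 9.58 ± 0.81, OAS3 3.84 ± 2.28, OASL 3.58 ± 2.52, OAS1 0.341 ± 0.205, MX1 0.206 ± 0.047, MX2 0.144 ± 0.071 and OAS2 0.094 ± 0.082. The order was the same in KO-labelled libraries, and in both genotypes the ranges of OAS3 and OASL overlapped, as did those of neighbours from OAS1 down to OAS2. After IFNγ OAS2 moved from last place to rank 4, with 9.61 ± 3.89 and 9.35 ± 4.19 CPM per kb (SD, n = 5 each) under the WT and KO labels, while MX1 became last with 0.203 ± 0.033 and 0.239 ± 0.081 (SD, n = 5 each). The order in between was ADAR, EIF2AK2, OAS3, OAS2, OASL, OAS1 and MX2 in both genotypes, where the ranges of all neighbours from EIF2AK2 to MX2 overlapped.

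The make-up of the OAS family shifted with these changes. Per kilobase, OAS2 formed 1.25% ± 1.02 (SD, n = 5) of the OAS RNA in untreated WT clones and 24.9% ± 6.87 (SD, n = 5) after IFNγ. In KO-labelled libraries its share was 0.555% ± 0.498 and 27.9% ± 2.36 (SD, n = 5 each), so that in both genotypes the treated and untreated ranges were apart. OAS3 remained the largest part on average, with 49.0% ± 25.2 and 40.8% ± 17.3 (SD, n = 5 each) in untreated and treated WT clones, where OASL made up 93.4% of the untreated and 56.0% of the treated library of WT replicate 5.

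**Figure D2:**
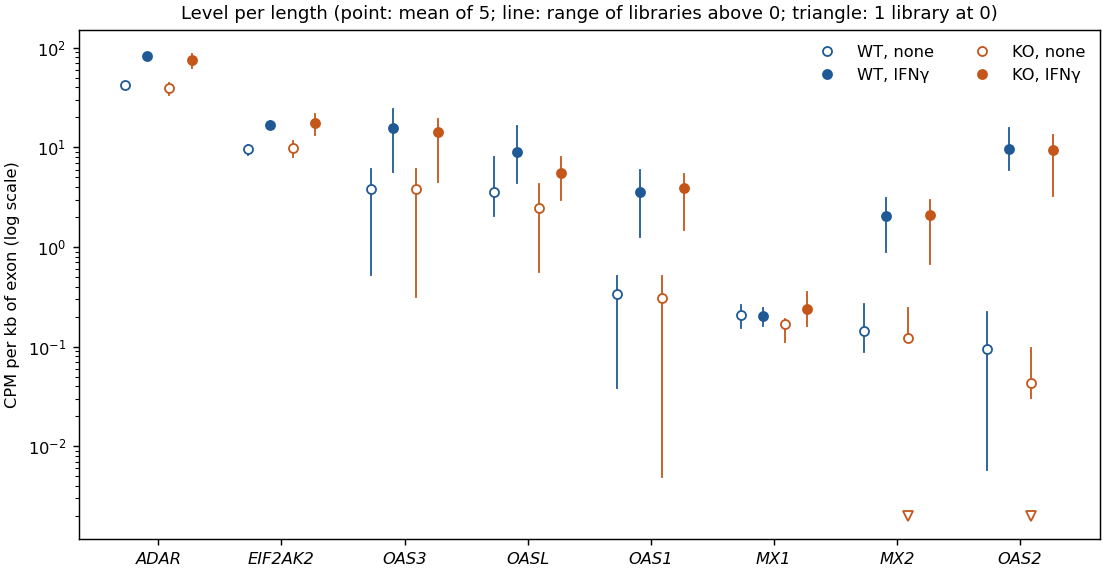
CPM per kb of exon on a log axis for the 8 genes in order of their level in untreated WT clones, with the mean of 5 libraries as a point, the range of libraries above 0 as a line and a library at 0 as a triangle. ADAR was highest in every group, at 42.5 and 82.7 CPM per kb in WT clones, and OAS2 crossed from the bottom to above OASL.

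The spread between clones had a pattern of its own, which was described after the values had been seen. The pair of clones was picked for its low OAS counts, so the counts below describe the pattern and do not test it. WT replicate 5 and KO replicate 2 were the lowest pair of the 10 untreated libraries for 4 of the 8 genes, OAS1, OAS2, OAS3 and MX2, and this held for 5.80% of the 21052 genes expressed. They were also the lowest pair of the 10 treated libraries for 5 genes, the same 4 and MX1, against 4.90% of all genes, and in both conditions for 4 genes against 1.82%. KO replicate 2 had 1 count of OAS1, 0 of OAS2, 0 of MX2 and 102 of OAS3 when untreated, and 414, 1370, 226 and 2031 counts after IFNγ. Its log2 response, treated minus untreated log2(CPM + 0.1), was 3.78 for OAS3, the highest of the 10 clones. The values of 5.68 for OAS1 and 5.09 for MX2 were also the highest, but rest on untreated counts under the floor and depend on the 0.1 CPM added.

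WT replicate 5 had 9 counts of OAS1, 2 of OAS2 and 194 of OAS3 when untreated, and its log2 response of 3.39 for OAS3 was the highest of the WT clones. Its responses of 4.35 for OAS1 and 8.08 for OAS2 depend on the 0.1 CPM added to counts this low, and its response of 3.07 for MX2 was the lowest of the WT clones. For EIF2AK2 the order was reversed in KO replicate 2, which was the highest of the 10 libraries at 117 CPM untreated and at 219.5 CPM treated. For ADAR the deviations of these clones from the mean of the 10 libraries were at most 0.15 on the log2 scale. Of 25 other genes of the double-stranded RNA pathways, IFIH1 and TLR3 had this pair lowest when untreated, ZBP1 after IFNγ and none in both. Without the pair, the log2 fold changes after IFNγ in WT clones and KO-labelled libraries were 1.98 and 1.81 for OAS3. In these fits 5 and 4 of the 8 genes were called higher, beside 393 of 19736 and 403 of 19666 genes. As the pair was picked from these genes, the added calls are no independent support.

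**Figure D3:**
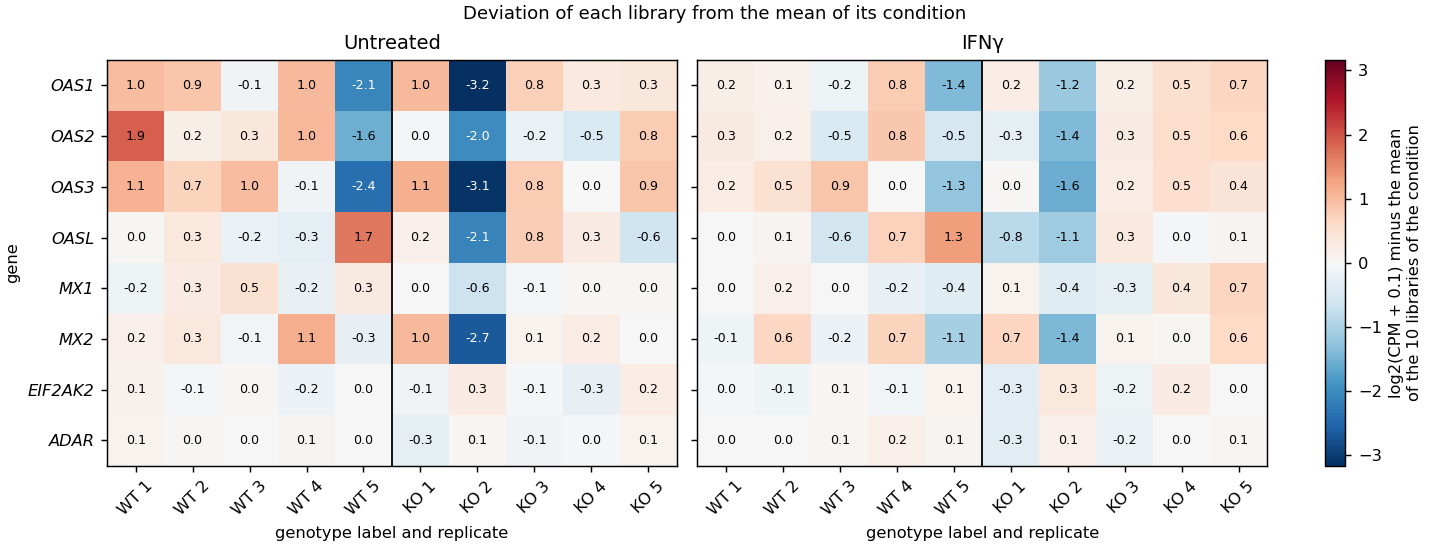
Deviation of each library from the mean of the 10 libraries of its condition in log2(CPM + 0.1), with genes as rows and WT and KO replicates as columns, untreated on the left and IFNγ on the right. WT replicate 5 and KO replicate 2 were low for OAS1, OAS2 and OAS3 on both sides (down to -3.16 for untreated OAS1), OASL was high in WT replicate 5 (1.68 and 1.33), and EIF2AK2 and ADAR lay between -0.34 and 0.33.

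Whether the genes depend on the ZBTB48 genotype was examined by comparing WT and KO labels in each condition. None of the 8 genes was called by edgeR or DESeq2 in either condition, none had an unadjusted p under 0.05 in either tool with all libraries, and 0.0154% and 0.0155% of all genes were called in untreated and treated libraries. Among the alternatives an unadjusted p under 0.05 was found for OASL after IFNγ without WT replicate 3 (log2 fold change 0.86, unadjusted p = 0.0317, edgeR adjusted p = 1.00) and without KO replicate 3 (0.87, unadjusted p = 0.0492, edgeR adjusted p = 0.997). The same held for OAS3 after IFNγ with replicate numbers as a block and numbers 4 and 5 left out of both genotypes (log2 fold change 0.96, SE 0.37, unadjusted p = 0.0399 and edgeR adjusted p = 0.953). WT and KO libraries of the same number are different clones, so this block pairs them arbitrarily and no difference can be read from it. The median log2 fold change of the 8 genes, WT over KO labels, was 0.19 in untreated libraries and -0.0037 in treated ones, beside -0.0017 and -0.016 over all genes. ADAR differed by 0.090 (SE 0.098) and 0.12 (SE 0.12) and EIF2AK2 by -0.043 (SE 0.12) and -0.056 (SE 0.14), untreated and treated. The wide spread of OAS1 (0.13, SE 0.79), OAS3 (-0.015, SE 0.69) and MX2 (0.24, SE 0.72) among untreated clones left differences of 2-fold undetectable there.

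OASL came nearest to a difference after IFNγ, with means of 40.9 ± 21.4 and 25.3 ± 9.96 CPM (SD, n = 5 each) under the WT and KO labels, a log2 fold change of 0.69 (SE 0.37, unadjusted p = 0.088 and edgeR adjusted p = 0.996). The groups overlapped (two-sided exact permutation test, p = 0.175), and in untreated libraries the log2 fold change was 0.53 (SE 0.52, edgeR adjusted p = 0.981). Without WT replicate 5 and KO replicate 2 the untreated value turned to -0.25, and the treated value stayed above 0 in all alternatives (0.20 to 0.90). OAS2 differed by 1.12 (SE 0.87, edgeR adjusted p = 0.98) in untreated libraries, where it had at most 82 counts, and by 0.034 (SE 0.37, edgeR adjusted p = 0.999) in treated ones. All other exact permutation tests of members between WT and KO labels gave p between 0.183 and 0.992.

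The responses themselves were compared as the difference between the IFNγ effects of WT clones and of KO-labelled libraries. None of the 8 genes was called in edgeR or DESeq2, none had an unadjusted p under 0.05, and 0.00% of all genes were called. The main fit took the 2 libraries of a clone as independent, and only 86 of 21052 genes had an unadjusted p under 0.05. With the clone as a block 317 genes had one, 0 of them members. In the block without KO replicates 4 and 5 it was 576 of 21718 genes, again with 0 members. The lack of calls therefore does not show that the responses are equal. The difference was -1.10 (SE 0.86) for OAS2, -0.52 (SE 0.36) for MX1, -0.29 (SE 0.83) for MX2 and -0.28 (SE 0.91) for OAS1, and between -0.018 and 0.15 for the other 4 (edgeR adjusted p = 1.00 for each). Taken clone by clone, WT clones raised OAS2 by 6.74 ± 0.97 and KO-labelled clones by 7.39 ± 0.54 on the log2 scale (SD, n = 5 each, two-sided exact permutation test, p = 0.238), and without KO replicates 4 and 5 the latter was 7.32 (exact permutation test, p = 0.429). ADAR responded by 0.96 ± 0.080 and 0.93 ± 0.086 (SD, n = 5 each, exact permutation test, p = 0.611), the latter being 0.92 without those replicates (exact permutation test, p = 0.643). MX1 had the lowest p of the 8, with -0.0093 ± 0.34 against 0.43 ± 0.33 (SD, n = 5 each, exact permutation test, p = 0.0873), which without the doubtful pairs of KO replicates 4 and 5 was -0.0093 against 0.25 (exact permutation test, p = 0.357).

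Genes with the most similar profile were found by the root mean square difference of log2(CPM + 0.1), centred on each gene's mean, over the 20 libraries and among 21051 other genes. EIF2AK2 and ADAR were each other's nearest gene at 0.15. OAS1 was nearest to MX2 at 0.55, followed by TLR3 (0.58), and MX2 was nearest to ISG15 (0.55) and then OAS1. OAS2 was nearest to IFITM1 (0.78) and IL12RB1 (0.87) and OAS3 to PARP10 (0.47) and BTN3A2 (0.49), while the nearest member ranked only 55th for OAS2 and 37th for OAS3. OASL was nearest to LOC124901064 (0.53) and HAPLN3 (0.54), MX1 to CENPP (0.21) and FCF1P2 (0.22), and their nearest members ranked 408th and 7813th. The nearest genes outside the set were PATL1 and USP1 (0.19 each) for EIF2AK2, AKAP7 and CCDC9 (0.17 each) for ADAR, ISG15 (0.67) after TLR3 for OAS1 and TMEM229B (0.59) after ISG15 for MX2.

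Of 28 other genes of the double-stranded RNA pathways, 24 were tested after IFNγ. In WT clones 6 were called higher, against 2.48% of all genes tested, and 0 lower, and in KO-labelled libraries 5, against 1.70%, and 0, where without KO replicates 4 and 5 the count was 1 (STAT2) and in the block without them 3 (DDX58, STAT2 and IRF9). At an unadjusted p under 0.05 edgeR had 10 and 11 of the 24, where 24.9% and 23.5% of all genes were, and DESeq2, which called 6 higher and 0 lower in both genotypes, also had 10 and 11. The cytoplasmic and endosomal RNA sensors were among them: IFIH1 (MDA5) rose by a log2 fold change of 3.03 and 2.93, DDX58 (RIG-I) by 1.62 and 1.69 and DHX58 (LGP2) by 3.90 and 3.40 in WT clones and KO-labelled libraries. TLR3 rose by 3.12 in WT clones and had a log2 fold change of 3.24 (SE 0.68, edgeR adjusted p = 0.0159) in KO-labelled libraries. The transcription factors STAT2 (1.79 and 1.96) and IRF9 (2.28 and 2.27) were called in both. IFNB1 and IFNL1, a type I and a type III interferon, had at most 2 and 3 counts in any library. The receptor genes IFNAR1 and IFNAR2 had log2 fold changes between -0.073 and 0.11. IFNLR1, the other receptor gene listed, had -0.38 (SE 0.63) in WT clones and -0.68 (SE 0.38) in KO-labelled libraries, neither called.

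DNAJC3, an inhibitor of PKR, had log2 fold changes of -0.64 (SE 0.15, edgeR adjusted p = 0.0187) and -0.71 (SE 0.11, edgeR adjusted p = 0.00281), under 2-fold, while the other PKR partners PRKRA and TARBP2 lay between -0.035 and 0.081. AKAP7, a member of the list of genes that act on oligoadenylates, had 0.80 (SE 0.14, edgeR adjusted p = 0.00368) and 0.97 (SE 0.14, edgeR adjusted p = 0.0023), also under 2-fold, and ADARB1, the second editing enzyme, -0.14 and -0.15.

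**Figure D4:**
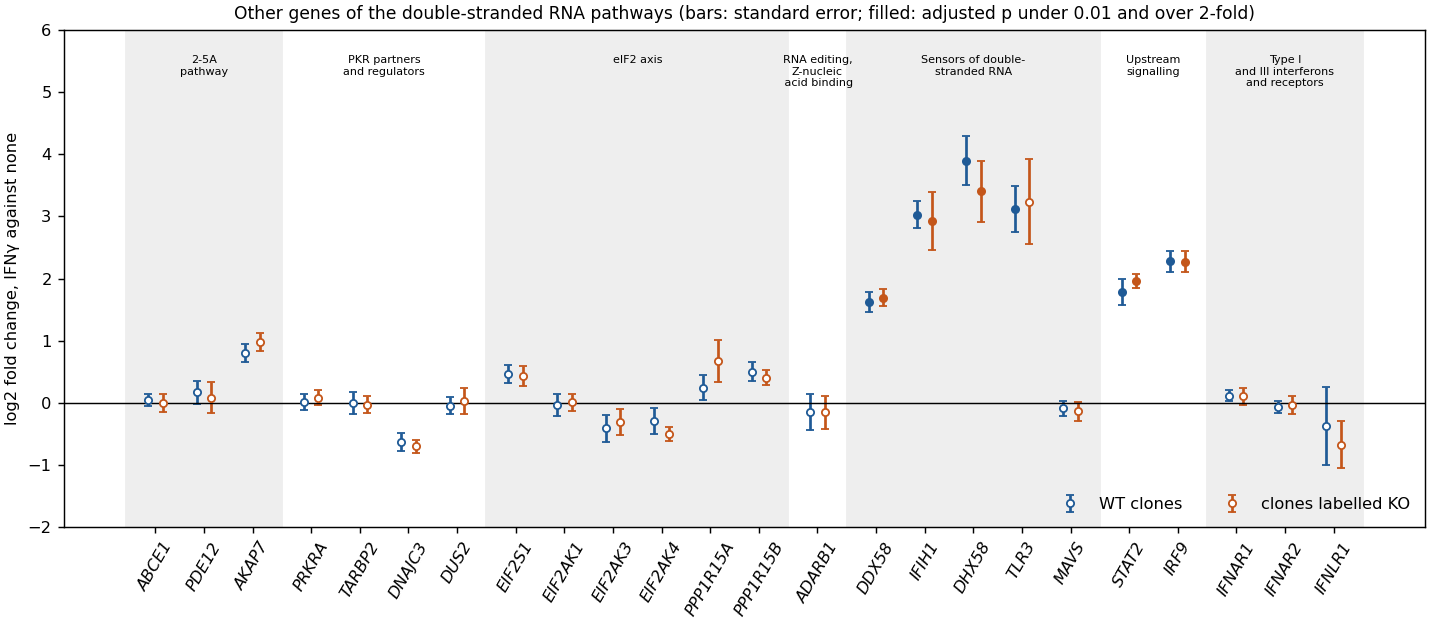
Log2 fold change after IFNγ with its standard error for the 24 tested genes of the pathway lists, grouped by role, in WT clones (blue) and KO-labelled libraries (orange), with filled points for those past both cut-offs. The calls were confined to the RNA sensors and to STAT2 and IRF9, and DNAJC3 had -0.64 and -0.71.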

How the data were processed

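RNA from 5 WT clones and 5 clones labelled ZBTB48 KO of U2OS, with and without IFNγ, had been sequenced as stranded mRNA libraries. Alignment by the authors was to GRCh38 with STAR (2.7.9a in the submitters' processing notes). Uniquely mapped reads were kept, and the authors deposited whole-number counts per RefSeq gene from featureCounts without normalization. The strand setting of that counting is not given in the sources used here, so reads of overlapping antisense exons cannot be told apart, and reads shared by related OAS or MX genes were dropped.

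Counts of 20 libraries were fitted per comparison with edgeR 4.0.16 in R 4.3.3 (TMM, its filter on low counts, robust quasi-likelihood test, Benjamini-Hochberg adjustment over all genes tested). The call needed an adjusted p under 0.01 and more than 2-fold, the cut-offs the study used between WT and KO clones, and its own tool, DESeq2 (1.42.0 here), was an alternative. Standard errors are log2 fold changes divided by the root of F. Two-sided exact permutation tests (scipy 1.17.1) used log2(CPM + 0.1), with 252 permutations of 5 against 5. Exon lengths are those of merged exons. The floor of 3 counts equals 0.0411 to 0.0643 CPM of the library totals. Without a block, p-values rest on the spread in level between clones. With the clone as a block, and in the clone-by-clone tests, they rest on the spread of responses between clones. Without the clone block, the fits and the exact tests of treated against untreated libraries take the libraries of a clone as independent.

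Genes named are the 8 members, ZBTB48, the 2 nearest profiles per member and fixed pathway and marker lists, of which some items are not reported here. The members and lists were chosen with earlier results of these data known. The scripts were tested on simulated data. Same-numbered libraries of a genotype are 1 clone per the labels, and their deviations correlated at r of 0.79 to 0.89 in WT clones, 0.70 to 0.85 in KO replicates 1 to 3, and 0.0003 and 0.069 in KO replicates 4 and 5, whose best match was the other number (0.76 and 0.84). Replicate numbers did not pair WT with KO clones (-0.26 to 0.25). No 2 libraries of a group agreed within counting noise.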

Additional observations from a re-analysis of the deposited data

Results flagged for a closer look

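In 48 groups of 5 values (CPM in each group and log2 response in each genotype, for the 8 genes), the gap between the most extreme value and its neighbour was more than 0.71 of the whole range in 3. For normally distributed values chance would give 2.4 (about 1 in 20). That number is only a rough guide, as CPM need not be normally distributed and the responses are computed from the same CPM. OASL in untreated WT clones was highest in replicate 5 at 36.4 CPM, with a gap of 0.816 of the range. The log2 response of OASL in WT clones was highest in replicate 4, with a gap of 0.766. MX1 in untreated KO-labelled libraries was lowest in replicate 2 at 0.648 CPM, with a gap of 0.808.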

How the results depend on the processing

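Over all fits, the main one included, OAS2 was called in 13 of 13 in WT clones and 14 of 15 in KO-labelled libraries. MX2 was called in 13 of 13 and 8 of 15, and OAS1 in 8 of 13 and 6 of 15. The low untreated counts of OAS1, OAS2 and MX2 limit what their fold changes can show. Of the 8 genes, 3 were called in WT clones, with 2 to 5 when 1 replicate was left out, 5 with the replicate block, 5 without WT replicate 5 and KO replicate 2, and 6 at an adjusted p under 0.05 with no minimum fold (5 to 7 when 1 replicate was left out). In KO-labelled libraries 2 were called, with 1 to 4 when 1 replicate was left out (4 without KO replicate 2), 4 with the replicate block, 4 with DESeq2 before shrinkage, 4 without WT replicate 5 and KO replicate 2, 5 at an adjusted p under 0.05 (2 to 6 when 1 replicate was left out, and 1 without KO replicates 4 and 5), 1 without the filter on low counts, 1 in the block without KO replicates 4 and 5, and 0 without those replicates. Over all genes the calls were 585 in WT clones (1414 with the replicate block, 976 with DESeq2 before shrinkage) and 379 in KO-labelled libraries (721, 823, 613 with DESeq2 shrunk, 642 with all 20 libraries, 306 in the block without KO replicates 4 and 5, and 22 without them). The cause was not tested.

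For WT over KO labels, the block without replicates 4 and 5 leaves these numbers out of both genotypes. Any block by replicate number is arbitrary there, as the numbers do not pair WT with KO clones. No change of direction concerned a called gene. MX1 in WT clones was 0.00056 without the filter, 0.0046 with the replicate block and 0.11 without WT replicate 5, with -0.10 to 0.11 when 1 replicate was left out. For WT over KO labels in untreated libraries, OAS3 was 0.038 with the replicate block, 1.15 in the block without replicates 4 and 5 and 0.017 without KO replicates 4 and 5, OASL was -0.25 without WT replicate 5 and KO replicate 2, and EIF2AK2 was 0.0060 in the block without replicates 4 and 5 and 0.012 without WT replicate 5 and KO replicate 2. With 1 replicate left out the ranges there were -0.18 to 0.42 for OAS1, -0.31 to 0.27 for OAS3, -0.10 to 0.65 for MX2 and -0.10 to 0.014 for EIF2AK2. After IFNγ, the block without replicates 4 and 5 and the fit without KO replicates 4 and 5 gave 0.32 and 0.22 for OAS1, 0.30 and 0.13 for MX1, 0.29 and 0.13 for MX2 and 0.039 and 0.029 for EIF2AK2, and OAS2 was -0.048 without WT replicate 5 and KO replicate 2. The ranges with 1 replicate left out were -0.39 to 0.082 for OAS1, -0.20 to 0.21 for OAS2, -0.088 to 0.35 for OAS3, -0.26 to 0.15 for MX2 and -0.14 to 0.028 for EIF2AK2. The difference between responses was 0.082 for OAS1 without KO replicates 4 and 5, and for EIF2AK2 0.0069 without the filter, 0.096 in the block without KO replicates 4 and 5 and 0.074 without them, with ranges of -0.095 to 0.38 for OAS3, -0.074 to 0.36 for OASL and -0.075 to 0.10 for EIF2AK2. Clone by clone, the ranges with 1 replicate left out were -0.25 to 0.42 for OAS3, -0.23 to 0.28 for OASL and -0.069 to 0.12 for EIF2AK2 (0.084 without KO replicates 4 and 5). MX1 then lay between -0.55 and -0.32, with an exact permutation p of 0.0317 without KO replicate 3, where the doubtful pairs of KO replicates 4 and 5 remain. Without those 2 replicates MX1 was -0.26 (exact permutation test, p = 0.357). With 1 CPM added in place of 0.1 it was also -0.26 (exact permutation test, p = 0.0873).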
